A study of Drosophila melanogaster with 24 samples.

Results

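Resistant line 1 (R1) was compared with sensitive line 1 (S1) on 8 of the 24 arrays of the study, namely 2 arrays of males and 2 of females from each line. Both lines descend from 1 natural population of *Drosophila melanogaster* and were bred by artificial selection on behavior in ethanol vapor, R1 toward resistance and S1 toward sensitivity. The other 16 arrays come from the second selected pair (R2 and S2) and from the unselected control lines C1 and C2, and they entered the fit for the spread between pools and a few comparisons below. All groups consisted of whole bodies of virgin flies, 3 to 5 days old, at generation 25, reared at 25 °C and pooled 15 to an RNA sample. According to the labels, every group had also met ethanol vapor before its RNA was taken, so no group here gives an unexposed level. R1 and S1 are 1 line each: selection and chance differences between lines cannot be told apart in this comparison, and its p-values measure only the spread between RNA pools.

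Flies oxidize ethanol to acetaldehyde and then to acetate, mainly in the fat body and gut, and acetate feeds into lipid synthesis and energy metabolism. Aldehyde dehydrogenase removes the toxic intermediate, and enzymes such as glycerol-3-phosphate dehydrogenase and malic enzyme use or supply the cofactors of these steps. Cytochrome P450s, glutathione S-transferases and UDP-glycosyltransferases act on foreign small molecules in general. The fat body also secretes antimicrobial peptides under control of the Toll and Imd pathways.

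Transcript abundance is given as Signal, the MAS5 summary of the probe intensities of a probe set, scaled by the authors to a common trimmed mean of 500 on each array. Signal was raised to a floor of 1 and log2 transformed, and R1 minus S1 was averaged over the sexes. Of the probe sets tested, 10707 were paired with 1 gene symbol. Duplicate pools correlated at 0.981 in R1 males, 0.98 in S1 males, 0.974 in R1 females and 0.958 in S1 females, the last being the lowest of the 12 groups of line and sex. The pools of S1 females differed more than 2-fold at 1473 probe sets, 983 of them lower in replicate 1. The labelled sexes held in R1 and S1: the accessory gland list summed to 138700 to 154400 Signal in males and to 191 to 306.0 in females, and the eggshell and yolk list summed to 97150 to 150600 in females and to 356.6 to 534.2 in males. In whole flies, fewer cells of a type and less RNA per cell cannot be told apart.

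Adjusted p-values come from limma, by Benjamini-Hochberg over all probe sets tested. Signal differed between R1 and S1 at 352 probe sets at a limma adjusted p under 0.001, which is 2.97% of those tested. Of these, 227 were higher in R1 (1.92%) and 125 were lower (1.06%). The median size of these differences was 0.976 on the log2 scale, 171 exceeded 2-fold, and 45 exceeded 4-fold, 29 higher and 16 lower in R1. The direction was the same in males and females for 349 of the 352. A call on the mean of both sexes favors such agreement, so this count is no separate test of it. Over all probe sets tested, the differences in males and in females correlated at 0.414. In 344 of the 352 the R1 and S1 arrays did not overlap within either sex, against 19.1% of all probe sets tested. With only the 8 arrays of R1 and S1 in the fit, 27 probe sets passed, and without replicate 1 of the S1 females 616 passed, with 315 higher and 301 lower in R1. At an adjusted p under 0.05, 1614 probe sets passed (13.6%), 972 higher (8.21%) and 642 lower (5.42%).

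Among genes higher in R1, the difference was widest for *CG18095*, *fiz* and *mthl8*. For *CG18095*, Signal in R1 was 348 and 448 in the male pools and 279 and 258 in the female pools, whereas in S1 it was 2.69, 6.85, 3.60 and 6.41. No S1 array came near an R1 array, and both control lines, at 163 in C1 and 427 in C2 (geometric means of 4 arrays), were far above S1. The difference was 6.16 ± 0.24 (log2, SE), or 71.7-fold (limma adjusted p = 7.64e-11). Against Signals this low the fold depends on the scale, and on log2(Signal + 50) the difference was 2.78, still past the threshold.

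*fiz* (*fezzik*) encodes a predicted oxidoreductase of the GMC family. Its Signal was 3333 and 4316 in R1 males, 2409 and 2119 in R1 females, 34.9 and 33.5 in S1 males, and 141 and 249.9 in S1 females. Here too S1 stood apart from every other line, since the means were 3568 in C1, 2442 in C2, 2102 in S2 and 1551 in R2. R1 exceeded S1 by 5.19 ± 0.14 (log2; 36.6-fold; limma adjusted p = 5.2e-13), and the gap was wider in males (6.79) than in females (3.59), a difference between the sexes that passed its own test (adjusted p = 1.86e-05).

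*mthl8* belongs to the methuselah-like family of G protein-coupled receptors. R1 arrays read 211 and 182 in males and 106 and 133 in females, and S1 arrays read 5.26 to 6.86. The difference was 4.65 ± 0.23 (log2; 25.1-fold; limma adjusted p = 1.78e-09), or 1.86 on log2(Signal + 50), and a second probe set of the gene gave 4.38. C1 lay between the lines at 30.9, and C2 at 118 was near R1.

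Further down, the 15 most increased genes held members of several enzyme families and of the immune response. *CG4267* read 443, 430.3, 783 and 715 in R1 against 73.3, 78.4, 103 and 97.1 in S1, a difference of 2.72 ± 0.10 (log2; limma adjusted p = 6.58e-11). *Adk3*, an adenylate kinase of the nucleotide pool, read 236 to 291 in R1 and 37.3 to 61.7 in S1 (difference 2.38). *CG11893* and *CG11891*, members of the ecdysteroid kinase-like family, exceeded S1 by 2.39 and 2.17. In these 4 genes no R1 array overlapped an S1 array.

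*CG4592*, a predicted enoyl-CoA isomerase of fatty acid oxidation, read 64.8 to 229.7 in S1 and 554 to 679 in R1 (difference 2.19). *Ir76a*, an ionotropic receptor, was 179 to 240.3 in R1 and 22.7 to 74.9 in S1 (difference 2.31). *Prx6c*, a peroxiredoxin that removes peroxides, read 1318 and 1680 in R1 males against 431 and 364 in S1 males, and 238 and 322 in R1 females against 26.4 and 78.0 in S1 females (difference 2.26, limma adjusted p = 1.65e-05). For *Prx6c* the sexes differed in level, R1 females lying below S1 males, but within each sex the lines were apart. *CG30083* (difference 3.35) lost its call in 8 of 18 alternatives.

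**Figure D1:**
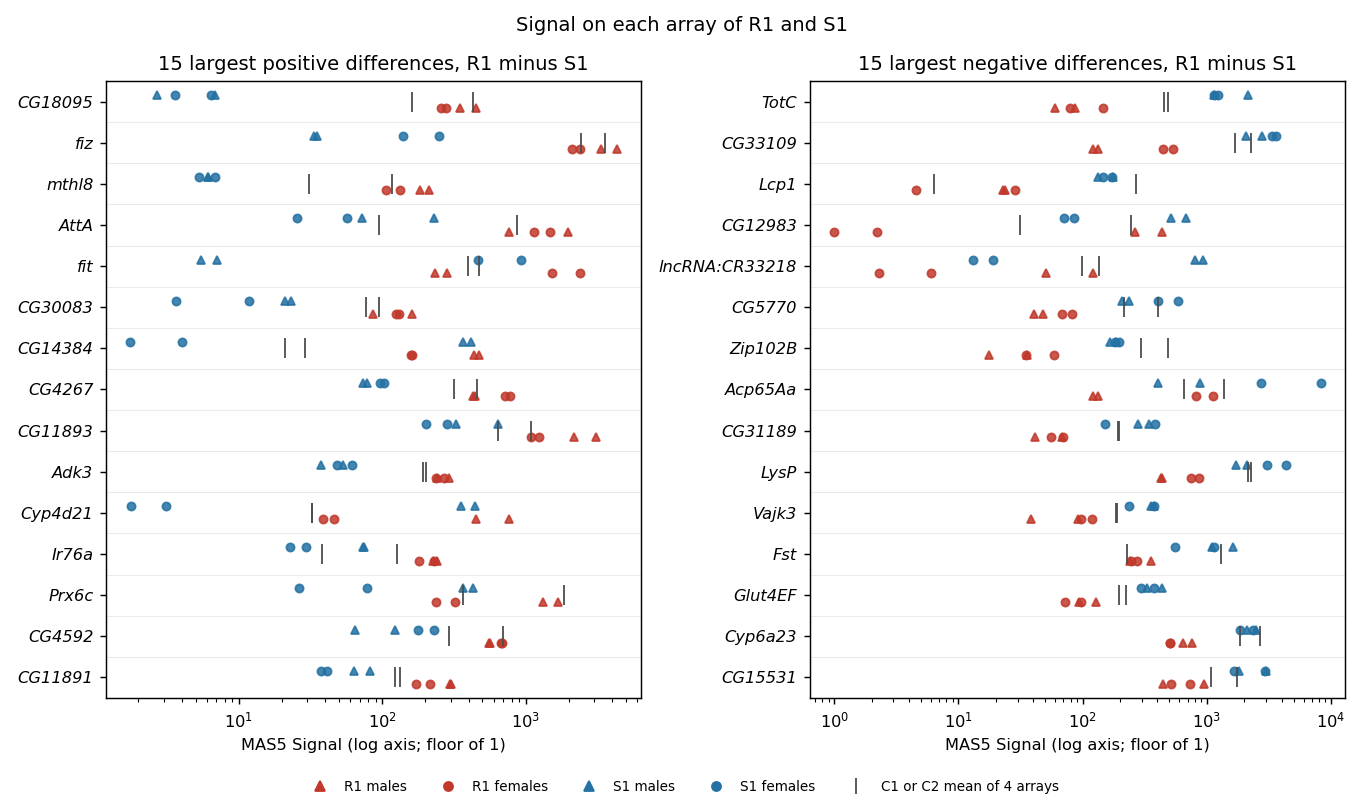
Signal (log axis) on each array of R1 (red) and S1 (blue), males as triangles and females as circles, for the 15 probe sets with the largest positive (left) and the 15 with the largest negative difference (right); vertical ticks mark the geometric means of C1 and C2. The R1 and S1 arrays of *CG18095*, *fiz* and *mthl8* do not overlap, and in *CG18095* and *fiz* both control lines lie far above S1.

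In addition, 2 probe sets without a paired gene had larger differences than any named gene; they were singled out after their values were seen. The first read 2831 and 3026 in R1 males and 4424 and 4884 in R1 females, against 62.9, 87.4, 36.8 and 3.30 in S1 (difference 7.01, limma adjusted p = 7.02e-08). The second was 6.47 higher in R1 than in S1, but its R2 minus S2 difference was −7.97.

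Among genes lower in R1, *TotC* and *CG33109* led. *TotC* is a Turandot gene, whose secreted peptide is induced in flies by heat, infection and other stress. Its Signal was 86.4 and 60.3 in R1 males, 78.8 and 145 in R1 females, 2133 and 1144 in S1 males, and 1138 and 1224 in S1 females. Every S1 array exceeded every R1 array, by 15.5-fold on average (−3.95 ± 0.65 log2; limma adjusted p = 0.000566), but the call was lost whenever any 1 of the 8 arrays was left out, with differences of −4.18 to −3.73. C1 and C2 lay between the lines at 488 and 454.

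*CG33109* was steadier: R1 males read 132 and 121 and R1 females 535 and 445, while S1 males read 2777 and 2066 and S1 females 3604 and 3353. The difference of −3.54 ± 0.18 (log2; 11.6-fold; limma adjusted p = 2.26e-09) kept its call in each of the 18 alternatives. The controls, at 1669 in C1 and 2260 in C2, were nearer to S1 than to R1.

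*LysP*, a lysozyme, had the same form. R1 males read 434 and 430.2 and R1 females 870.4 and 741, and S1 males read 2120 and 1726 and S1 females 4372 and 3068 (−2.17 ± 0.13 log2; limma adjusted p = 1.32e-08). C1 (2261) and C2 (2140) were close to S1, and the S2 and R2 means of 1002 and 1122 were intermediate.

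*Zip102B*, a zinc transporter gene on the fourth chromosome, was 17.8 to 59.1 in R1, 166 to 196 in S1, and 297 to 548 as the means of the 4 other lines. The R1 minus S1 difference was −2.42 (limma adjusted p = 4.32e-07), although with Signal this low in R1 it was −1.44 on log2(Signal + 50). *CG5770* read 206 to 580.4 in S1 and 40.4 to 82.6 in R1 (−2.51). *CG31189* fell by 2.25 and *CG15531*, a predicted fatty acid desaturase, by 1.84, the latter call lost in 8 of 18 alternatives.

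Genes of the cuticle and of stress followed. *Lcp1*, a larval cuticle protein gene, read 133 to 174 in S1 and 4.51 to 28.6 in R1 (−3.26, or −1.57 on log2(Signal + 50)). *Vajk3*, also a cuticle protein gene, read 236 to 377 in S1 and 38.1 to 118 in R1 (−2.06), and its neighbor *Vajk2* was lower by 1.40. Neither of these genes had an R1 array within the range of S1.

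*Acp65Aa*, a cuticle protein gene in spite of its symbol, had a difference of −2.26, with 133 and 121 in R1 males, 876 and 405 in S1 males, 1130 and 822 in R1 females, and 2707 and 8232 in S1 females. Its call was lost in 10 of 18 alternatives. *Fst* (*Frost*), which is induced in flies by cold, was 549 to 1622 in S1 and 241 to 354 in R1 (−1.90), with C1 at 1311 and C2 at 228, and lost its call in 11 alternatives. *Glut4EF*, a transcription factor gene, fell by 1.89 at 1 of its 5 probe sets, whereas the others did not pass, with differences as small as −0.19.

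In the 16 genes of alcohol, aldehyde and acetate metabolism, 1 was higher and 1 lower at an adjusted p under 0.001. These calls were 12.5% of the list, beside 2.97% of all probe sets tested. The median difference was 0.00239, beside 0.0221 over all probe sets tested. *Aldh*, the mitochondrial aldehyde dehydrogenase, read 11231 and 10546 in R1 males, 9368 and 8609 in R1 females, 5523 and 5109 in S1 males, and 3604 and 4782 in S1 females. R1 was above S1 on every array, by 1.07 ± 0.09 (log2; 2.11-fold; limma adjusted p = 6.02e-07), and C1 (6086) and C2 (7435) lay between them.

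*Sodh2*, a sorbitol dehydrogenase, was lower in R1, at 62.1 to 149.9 against 201 to 289 in S1 (−1.33, limma adjusted p = 0.00056), and lost its call in 11 of 18 alternatives. *Gpdh1*, the glycerol-3-phosphate dehydrogenase, was at −0.74 (adjusted p = 0.00913) and did not pass. *Men*, malic enzyme (0.33, adjusted p = 0.00567), *AcCoAS*, acetyl-CoA synthase (0.20, adjusted p = 0.0614) and *FASN1*, a fatty acid synthase (0.01, adjusted p = 0.962), did not pass either. At an adjusted p under 0.05, 2 of the 16 genes were higher and 5 lower, beside 8.21% and 5.42% of all probe sets tested.

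In energy metabolism, *Pepck1* and *Lsd-2* kept their calls in each of the 18 alternatives. *Pepck1*, phosphoenolpyruvate carboxykinase of gluconeogenesis, read 10860 and 12826 in R1 males and 3995 and 4744 in R1 females, against 5485 and 5513 in S1 males and 1328 and 1433 in S1 females (1.38 ± 0.09 log2; limma adjusted p = 2.18e-08). *Lsd-2*, a perilipin of lipid droplets, read 5147 and 5239 in R1 males and 10580 and 9429 in R1 females, against 2331 and 2146 in S1 males and 5207 and 5201 in S1 females (1.08 ± 0.07 log2; limma adjusted p = 2.18e-08). For both genes the sexes differed in level, and within each sex the lines were apart.

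*sut1*, a sugar transporter, was lower in R1 (−1.02, limma adjusted p = 0.000407), with 722 and 703 in R1 females against 3005 and 1531 in S1 females and a smaller gap in males, and lost its call in 9 alternatives. Of 27 genes of sugar metabolism, *Pepck1* and *sut1* passed (7.41%, beside 2.97% of all probe sets tested), and the list's median was −0.186. Leaving out replicate 1 of the S1 females gave 4 lower (median −0.301), and without replicate 2 the median was −0.0168. Of 23 lipid genes, *Lsd-2* and *Mtpalpha*, a subunit of mitochondrial fatty acid oxidation (0.52), passed (8.7%, beside the same 2.97%). Of 16 fatty acid elongases, *bond* alone passed (−0.54, lost in 15 of 18 alternatives), which is 6.25% of the list, and the median was −0.443. At an adjusted p under 0.05, 6 were lower and 1 higher, beside 5.42% and 8.21% of all probe sets tested. Without replicate 2 of the S1 females no elongase passed and the median was −0.221.

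Cytochrome P450 genes moved in both directions, with 5 higher and 3 lower of 72 tested (median 0.103). These calls were 11.1% of the list, beside 2.97% of all probe sets tested. Without replicate 1 of the S1 females 5 were higher and 4 lower (median 0.00212), and without replicate 2 they were 9 and 2 (median 0.204). *Cyp6a17* and *Cyp6a23*, which adjoin each other in the Release 6 gene order of the genes tested, went opposite ways. *Cyp6a17* read 1664 to 2350 in R1 and 501 to 703 in S1 (1.77 ± 0.11 log2; limma adjusted p = 2.18e-08). *Cyp6a23* read 503 to 765 in R1 and 1852 to 2505 in S1 (−1.88 ± 0.09 log2; limma adjusted p = 1.78e-09). In neither gene did the lines overlap, and both calls held in each of the 18 alternatives. Whether probes of these related genes also bind the other's transcript was not tested.

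*Cyp4e3* was 148 to 215 in R1 and 36.9 to 47.4 in S1 (2.04). *Cyp4d21* was 2.38 higher, or 0.67 on log2(Signal + 50), and lost its call in 11 of 18 alternatives. *Cyp6a14* (0.85), *Cyp6a21* (1.05), *Cyp28a5* (−1.21) and *Cyp313a1* (−1.17) completed the 8 called. In the other families of detoxification, *GstD2* (1.31, lost in 11 of 18 alternatives) and *GstD9* (0.73) passed among 32 glutathione S-transferases. *Ugt303B1* (1.89, lost in 8) and *Ugt301D1* (1.16) passed among 25 UDP-glycosyltransferases. These calls were 6.25% and 8% of the lists, beside 2.97% of all probe sets tested. At an adjusted p under 0.05, 3 glutathione S-transferases were higher and 3 lower, and 6 UDP-glycosyltransferases were higher and 2 lower. Of all probe sets tested, 8.21% were higher and 5.42% lower at that threshold. Without replicate 1 of the S1 females, 1 glutathione S-transferase was higher and 3 were lower, and 1 UDP-glycosyltransferase was higher and 1 lower.

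Immune-induced peptides had a median of 1.09 over 16 genes. All 16 differences were positive, 3 passed at an adjusted p under 0.001 and 10 at 0.05, and no member fell at either threshold. Of all probe sets tested, 1.92% were higher at 0.001 and 8.21% at 0.05. *AttA*, the antibacterial peptide attacin, read 759 and 1984 in R1 males and 1480 and 1146 in R1 females, against 72.5 and 229.9 in S1 males and 25.6 and 56.9 in S1 females (4.17 ± 0.51 log2; limma adjusted p = 3.98e-05). Pools of 1 group differed widely, but the lines did not overlap.

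*BomBc3*, a bomanin of the Toll response, read 5744 to 10062 in R1 and 1644 to 4708 in S1 (1.28), and *Drsl5*, a drosomycin-like gene, was 0.68 higher. The call was lost in 9 of 18 alternatives for *BomBc3* and in 13 for *Drsl5*. *DptB* (2.89, adjusted p = 0.00413), *Mtk* (2.16, adjusted p = 0.00543) and *BomBc1* (1.90, adjusted p = 0.00152) had larger differences than *BomBc3* but did not pass, with wide ranges: *DptB* read 551 to 2121 in R1 and 46.5 to 348 in S1. Of 21 Toll and Imd signaling genes none passed at 0.001 (limma; 8 at an unadjusted p under 0.05). Of these 21 genes, 4 were higher at an adjusted p under 0.05, and the median was 0.117. Unadjusted p-values this low were common: 3196 of all probe sets tested were under 0.05, beside 1614 (13.6%) after adjustment. Among 10 peptidoglycan recognition proteins and lysozymes, *LysP* alone passed, downward (10%, beside 2.97% of all probe sets tested). Without replicate 1 of the S1 females the peptide median was 0.803 and 1 peptide gene passed, and without replicate 2 the median was 1.34 and 4 passed.

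Genes that break down starch and sugars were likewise all above zero. Of the 12 glycosidases, 2 were higher at 0.001 and 7 at 0.05, beside 1.92% and 8.21% of all probe sets tested. Their median was 0.708, and without replicate 1 of the S1 females the median was 0.446. Without replicate 2 it was 0.917, and 6 passed. *Mal-A8*, a maltase, read 4349 and 3742 in R1 males, 2287 and 1709 in R1 females, 2178 and 1609 in S1 males, and 234 and 499.5 in S1 females (1.82 ± 0.20 log2; limma adjusted p = 1.23e-05). *Mal-B2*, another maltase, was 0.81 higher. The gap in *Mal-A8* was 2.53 in females and 1.11 in males, a difference between the sexes that did not pass (adjusted p = 0.143).

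The Jonah and trypsin serine proteases, also enzymes of digestion, had a median of 0.0844 over 22 genes. Of these, *Jon99Fi* (1.35, lost in 8 of 18 alternatives) and *Jon74E* (1.09) passed, or 9.09%, beside 2.97% of all probe sets tested. Without replicate 1 of the S1 females 2 were higher and 2 lower with a median of −0.155, and without replicate 2 the median was 0.286. *Jon99Fi* read 15698 and 12829 in R1 males against 4057 and 2364 in S1 males, and 17178 and 15510 in R1 females against 12704 and 10413 in S1 females. Over the 12 midgut marker genes the summed Signal was 91940 to 127000 in R1 and 91320 to 146800 in S1, so that the summed gut markers overlapped between the lines.

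Of 4 metallothioneins, which bind copper and zinc, *MtnB* and *MtnC* passed (50%, beside 2.97% of all probe sets tested). *MtnB* read 712 and 629.5 in R1 males and 392.1 and 286.5 in R1 females, against 199 and 144 in S1 males and 84.3 and 77.2 in S1 females (2.02 ± 0.20 log2; limma adjusted p = 4.38e-06). *MtnC* was 1.21 higher, *MtnD* was at 0.74 (adjusted p = 0.00305), and *MtnA* had an R1 over S1 ratio of 0.999. *MtnB* and *MtnC* did not overlap between the lines within either sex.

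**Figure D2:**
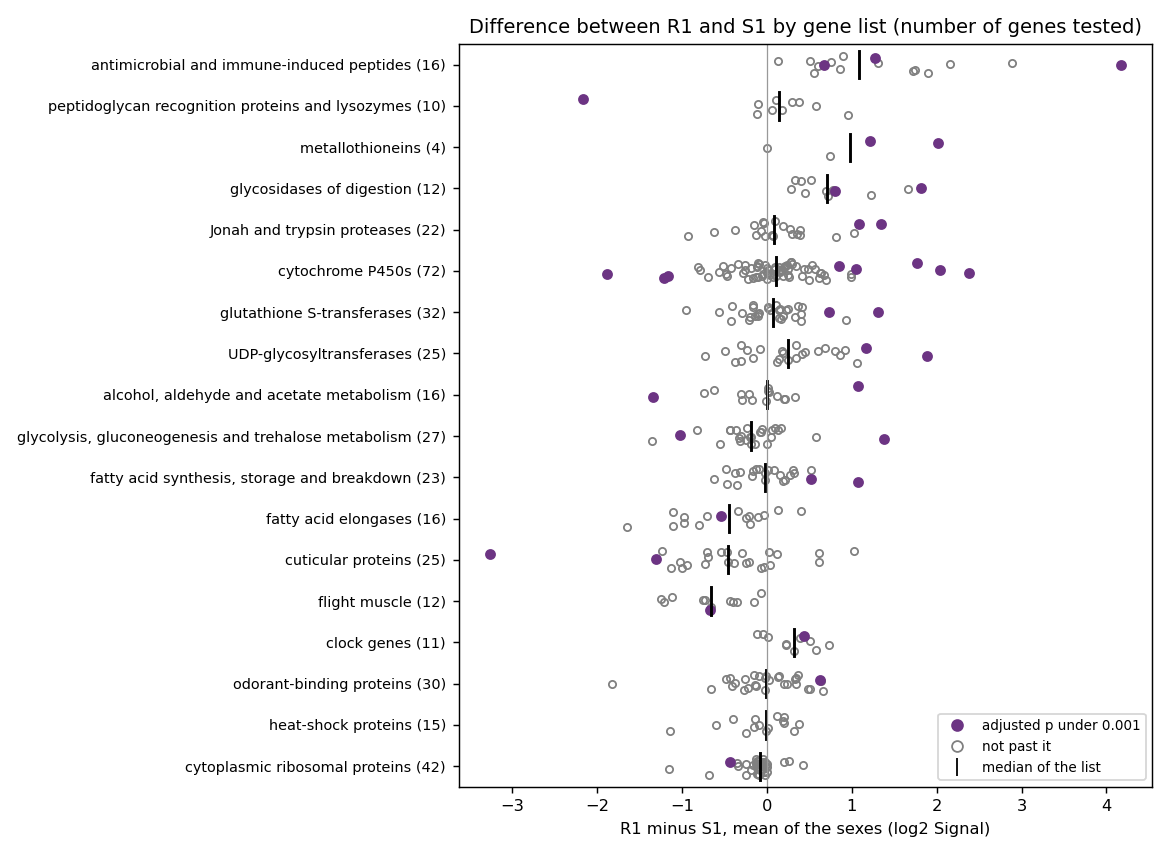
R1 minus S1 (log2 Signal, mean of the sexes) for each gene of 18 lists, with the number of genes tested in parentheses; filled points passed an adjusted p under 0.001 and black bars are list medians. Every point of the immune-induced peptides and of the glycosidases lies right of 0, and every point of the flight muscle list lies left of it.

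The lists of structural transcripts had medians below zero. Of 25 cuticular protein genes, *Lcp1* and *Cpr49Ae* (−1.31, lost in 8 of 18 alternatives) passed (list median −0.456). These calls were 8% of the list, beside 2.97% of all probe sets tested. At 0.05, 7 were lower and 3 higher, beside 5.42% and 8.21% of all probe sets tested. Without replicate 1 of the S1 females 4 cuticular genes were lower (median −0.66), and without replicate 2 only 1 was (median −0.315). All 12 flight muscle genes had negative differences, with a median of −0.663 and 5 lower at 0.05. At 0.001, 8.33% of this list passed, beside 2.97% of all probe sets tested. *Tm2*, a muscle tropomyosin gene, passed: it read 6900 and 6678 in R1 males against 9789 and 9949 in S1 males, and 4801 and 4129 in R1 females against 6929 and 8627 in S1 females (−0.67, limma adjusted p = 0.000543), and lost its call in 12 of 18 alternatives. The summed Signal of the 12 genes was 102900 to 106900 in R1 males and 144500 to 177700 in S1 males, and 79160 to 82560 in R1 females and 85980 to 165400 in S1 females.

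The muscle list also marks the pools of S1 females as unlike. *fln* (*flightin*, of the thick filament) read 438 in replicate 1 and 17847 in replicate 2, a ratio of 40.7, and *TpnC4* and *Act88F*, the troponin and actin of indirect flight muscle, differed by ratios of 35.4 and 14.3. For *fln*, replicate 1 was the lowest and replicate 2 the highest of the 24 arrays of the study. *Mlc2*, *Tm2* and *TpnC41C* differed between the same pools by ratios of 1.44 or less. Without replicate 1, 5 of the 12 muscle genes were lower in R1 at 0.001 (median −0.713), and without replicate 2 none passed (median −0.211). Values of other lists without 1 of these pools stand beside those lists.

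**Figure D3:**
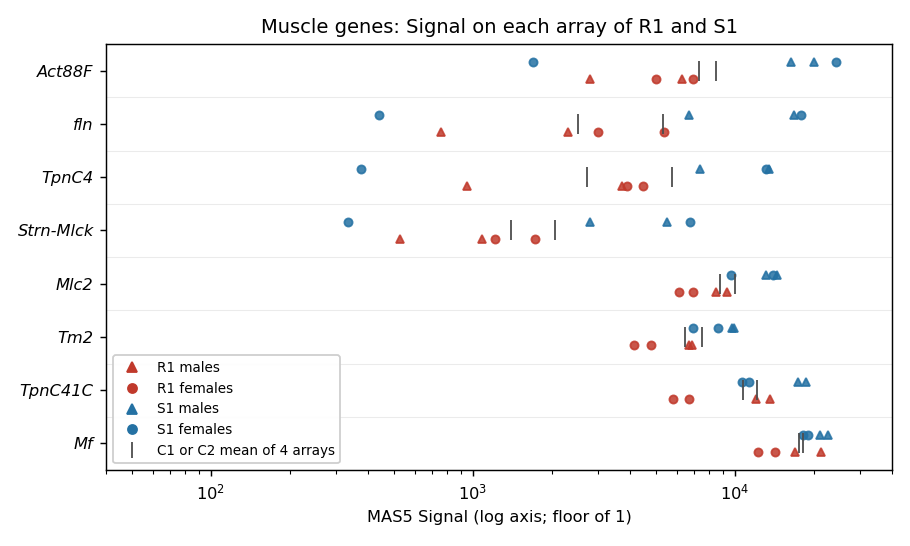
Signal (log axis) of 8 muscle genes on each array of R1 (red) and S1 (blue), males as triangles and females as circles; ticks mark the means of C1 and C2. For *Act88F*, *fln*, *TpnC4* and *Strn-Mlck* the S1 females lie at opposite ends, whereas for *Mlc2* and *Tm2* they lie together.

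The odorant-binding, chemosensory, clock and cAMP lists had 1 call each. These were 3.33%, 25%, 9.09% and 7.14% of the lists, beside 2.97% of all probe sets tested. *Obp56d* (0.63) passed among 30 odorant-binding proteins, *Ir76a* among 4 chemosensory receptors tested, *tim* (0.44, lost in 14 of 18 alternatives) among 11 clock genes, and *Ac78C*, an adenylyl cyclase (−1.17), among 14 cAMP and memory genes. Of the 11 clock genes, 5 were higher at an adjusted p under 0.05, with a median of 0.315. None of 12 biogenic amine genes, 12 juvenile hormone genes or 15 heat-shock proteins passed at 0.001 (limma; 3, 4 and 6 at an unadjusted p under 0.05). At an adjusted p under 0.05, 1 biogenic amine gene and 1 juvenile hormone gene were lower, and 2 heat-shock genes were higher and 2 lower. Of all probe sets tested, 8.21% were higher and 5.42% lower at that threshold.

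The study lists genes from earlier work on alcohol responses, of which 31 were tested here. At 0.001, 9.68% of them passed, beside 2.97% of all probe sets tested. *Rac2*, a regulator of the actin cytoskeleton, read 1228 and 1247 in R1 males and 1525 and 1583 in R1 females, against 511 and 435 in S1 males and 734 and 533 in S1 females (1.35 ± 0.16 log2; limma adjusted p = 2.78e-05). *Adf1*, a transcription factor first found at the promoter of the alcohol dehydrogenase gene, was 1.04 higher (2.05-fold; limma adjusted p = 8.57e-06), and *Aldh* was the third to pass. At their brightest probe sets, *slo*, *hang*, *rut*, *dnc*, *NPF*, *Tbh* and *Fas2* had differences of −0.17 to 0.12 and did not pass. In its own test over all its lines, the study called *slo* and a probe set of *Fas2* at a false discovery rate under 0.001. The study itself left neuropeptide F out because of absent calls. Over the 31 genes the differences ran from −0.74 to 1.35. At an adjusted p under 0.05, 5 were higher and 1 lower, beside 8.21% and 5.42% of all probe sets tested. The median of the list was 0.0361, beside 0.0221 over all probe sets.

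Of 35 genes whose insertions the study tested for alcohol sensitivity, 8.57% passed at their brightest probe set, beside 2.97% of all probe sets tested. All 3 were higher in R1. They were *Lsd-2*, *sgl* (UDP-glucose dehydrogenase, 0.90) and *CG5946* (0.60). Among other probe sets, 1 of 6 for *mbl* was called higher in R1 and 1 of 15 for *lola* was called lower. Differences over all probe sets of the gene ran from −0.39 to 2.13 for *mbl* and from −0.92 to 0.91 for *lola*. *sgl* read 1618 and 1282 in R1 males against 801 and 630.0 in S1 males, and 2705 and 2335 in R1 females against 1572 and 1375 in S1 females. The list was chosen by the study with these arrays in hand, so its count is not independent evidence. At an adjusted p under 0.05, 10 were higher and 4 lower, beside 8.21% and 5.42% of all probe sets tested.

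By sex, 135 probe sets differed in males (1.14%; 95 higher, 0.803%, and 40 lower, 0.338%) and 136 in females (1.15%; 80 higher, 0.676%, and 56 lower, 0.473%) at an adjusted p under 0.001. Of these, 56 passed in both sexes, all in the same direction. In females the balance turned to 94 higher and 128 lower without replicate 1 of the S1 females, 74.5% of the calls were higher without replicate 2, and the counts were 442 and 444 at an adjusted p under 0.05. The test of the difference itself called 65 probe sets at an adjusted p under 0.05 (0.549%), 44 with the higher value in males (0.372%) and 21 with the higher value in females (0.177%). These were 76 and 83 without replicate 1 of the S1 females, and 154 and 193 without replicate 2. With only the 8 arrays of R1 and S1 in the fit the counts were 3 in males, 16 in females and 13 for the difference.

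Several sex differences came from genes that were near the bottom of the scale in females of S1. *CG14384* read 435 and 474 in R1 males and 367 and 419 in S1 males, but 162 and 160.0 in R1 females against 3.99 and 1.76 in S1 females. Its difference was 0.21 in males and 5.93 in females (limma adjusted p for the difference = 0.000875). R1 females were the exception here, since the means of females of C1, C2, S2 and R2 were 1.25 to 2.39. *Cyp4d21* differed by 0.57 in males and 4.18 in females (adjusted p = 0.0453), and *CG6628* by −0.09 and 3.50 (adjusted p = 0.00535). For *CG6628* females read only 21.8 and 31.35 in R1 and 1.695 and 3.14 in S1. Its difference over both sexes was 1.71, or 0.23 on log2(Signal + 50), and its call was lost in 12 of 18 alternatives. For *Cyp4d21* the R1 females were not the highest, since S2 females had a mean of 95.4 against 42.5 in R1 females.

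*CG12983* showed the reverse. Its probe set with the higher Signal read 659.5 and 863 in R1 males, 865 and 1094 in S1 males, 2.60 and 2.79 in R1 females, and 137 and 160.4 in S1 females (−0.37 in males, −5.78 in females; limma adjusted p for the difference = 1.13e-05), and its second probe set gave −0.79 and −5.71. With Signals this low in R1 females the sizes depend on the scale: the difference over both sexes was −3.07 and −3.25 at the 2 probe sets, and −1.13 and −1.01 on log2(Signal + 50). Females of C1 lay near S1 and those of the other lines near R1: the means of the first probe set were 112 in C1 females and 1.15 to 1.58 in those of C2, S2 and R2.

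Of 3 fat body genes tested, 2 differed between the sexes, in opposite directions. *fit*, a secreted peptide of the female fat body, read 232 and 281 in R1 males, 7.03 and 5.50 in S1 males, 1530 and 2380 in R1 females, and 468 and 925 in S1 females. R1 was higher in both sexes, by 5.36 in males and 1.54 in females (limma adjusted p for the difference = 0.000743). Signals of S1 males were near the bottom of the scale, and the difference over both sexes was 3.45 on log2 Signal and 1.95 on log2(Signal + 50). *Lsp2*, a storage protein, was 1767 and 1320 in R1 males and 2958 and 2141 in S1 males, but 2040 and 1207 in R1 females against 90.4 and 180.5 in S1 females, so that the difference was −0.72 in males and 3.62 in females (adjusted p = 0.00177).

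**Figure D4:**
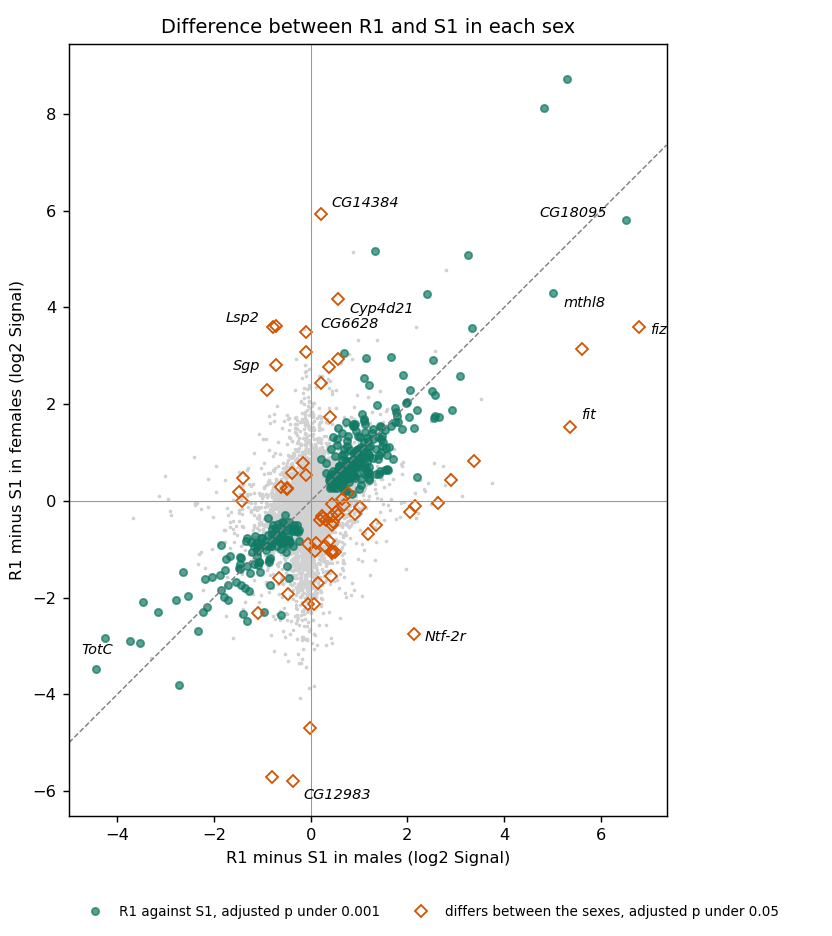
R1 minus S1 (log2 Signal) in males (horizontal) against females (vertical) for every probe set tested (grey); green points passed R1 against S1 over both sexes and orange diamonds are the 65 that differed between the sexes. Most green points lie near the dashed line of equality, while *CG14384* and *CG12983* lie near the vertical axis.

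The control lines were placed between or beyond R1 and S1 for the called probe sets. Of the 227 probe sets higher in R1, C1 was nearer to R1 in 102 and to S1 in 125, and C2 was nearer to R1 in 147 and to S1 in 80. Of the 125 lower in R1, C1 was nearer to S1 in 101 and C2 in 77. Both control lines were nearer to R1 in 78 of the 227 and in 10 of the 125, and both were nearer to S1 in 56 and 63.

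The second selected pair shared no array with the first. R2 differed from S2 at 636 probe sets (5.37%; 351 higher, 2.97%, and 285 lower, 2.41%), and 47 of them were also called in R1 against S1 in the same direction, which is 13.4% of the R1 and S1 calls and 7.39% of the R2 and S2 calls. A further 44 were called in the opposite direction (12.5% and 6.92%). The difference between the line pairs itself was called at 539 probe sets (4.55%; 287 with the higher value in the first pair, 2.42%, and 252 with the lower, 2.13%), among them 186 of the 352 (52.8%).

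*CG30083* was higher in the resistant line of both pairs (3.35 and 3.61 log2), as were *Cyp4e3* (2.04 and 2.27) and *AttA* (4.17 and 3.00; difference between pairs, limma adjusted p = 0.296). The immune-induced peptides as a list had a median of −1.2 in R2 against S2, beside 1.09 in R1 against S1. Medians of the glycosidases (0.708 and then −0.685), flight muscle (−0.663 and 0.373) and cuticular proteins (−0.456 and 0.412) also changed sign in the second pair. Those of the metallothioneins (0.976 and 1.02), fatty acid elongases (−0.443 and −0.432) and clock genes (0.315 and 0.375) did not. *fiz*, *CG18095*, *mthl8* and *CG4267*, in contrast, were at −0.44 to 0.01 in R2 against S2. *Prx6c* turned around, from 2.26 in R1 against S1 to −3.51 in R2 against S2 (limma adjusted p for the difference = 2.21e-08), and so did *Cyp4d21* (2.38 and −2.32), *BomBc3* (1.28 and −2.40) and *Tm2* (−0.67 and 1.00).

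**Figure D5:**
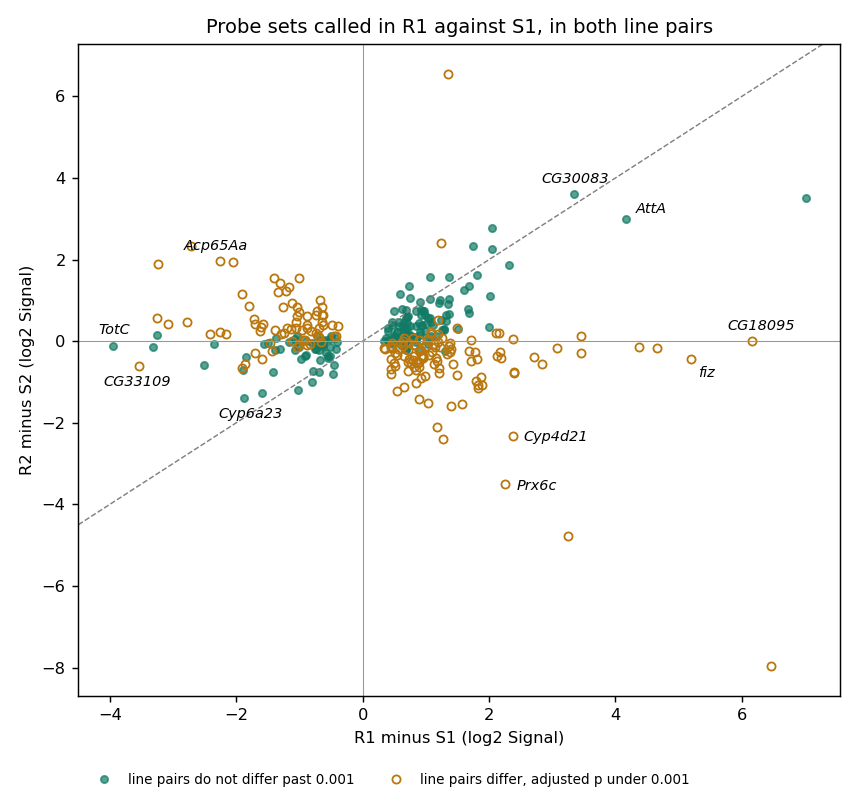
R1 minus S1 (horizontal) and R2 minus S2 (vertical), both log2 Signal, for the 352 probe sets called in R1 against S1; open points differed between the line pairs at an adjusted p under 0.001. *CG30083* lies near the dashed line of equality and *AttA* below it, *CG18095* and *fiz* near the horizontal axis, and *Prx6c* in the opposite quadrant.

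Called probe sets were spread over the genome, at 2.19% on chromosome X, 3.59% on 2L, 2.5% on 2R, 3.09% on 3L and 3.07% on 3R (arms of Release 6). Of 9915 pairs of genes adjacent in the tested order, 22 had both members called, 17 in the same direction and 5 in opposite directions. Of the 9923 genes in that order, 288 were called, and whether the 22 pairs exceed a random order was not tested. Among the 22 pairs, *Lsd-2* and its neighbor *dob*, a lipase gene, rose together (1.08 and 1.19), whereas its other neighbor *Cox17* was lower (−0.94). *Tm1* and *Tm2* fell together (−0.72 and −0.67), but *Tm1* was called at 1 of its 3 probe sets, with differences up to 0.06. Of 37 called genes with several probe sets, all probe sets pointed the same way in 23, and *CG3301* was called in both directions, with differences from −1.70 to 1.34 over its probe sets.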

How the data were processed

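RNA of whole flies was hybridized to Affymetrix Drosophila Genome 2.0 arrays. The deposited values are a linear intensity for each probe set, the MAS5 Signal that the authors scaled to a trimmed mean of 500 per array. Detection calls were not used. Each array took its line, sex and replicate number from the labels. Of 18769 probe sets other than controls, as many as the methods kept were tested, namely those with 12 or more arrays at a Signal of 50.4 or above. The floor of 1 applied to 116 of 94704 tested values of R1 and S1. In limma 3.58.1 (R 4.3.3), lmFit estimated the 12 means of line and sex over all 24 arrays, eBayes moderated the variances along an intensity trend, and each contrast was adjusted by Benjamini-Hochberg. The fit was tested on simulated data.

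Named genes include the 15 largest positive and 15 largest negative differences. These were taken among called probe sets with 1 symbol, a geometric mean Signal of at least 100 in the highest group and 1 direction in both sexes. The 8 largest sex differences past their own threshold had no limit on Signal or direction, nor on the call over both sexes. Up to 4 called members of each of 37 lists, and members of the alcohol lists, were named without those limits on Signal or direction. Further genes were named after their values were seen: the other called cytochrome P450s, list members that did not pass, muscle genes, neighbors and *CG3301*. A gene with several probe sets entered its list through the brightest. Symbols come from the platform annotation and, for 144 tested probe sets, from gene names in the study's tables. The members and lists were chosen with earlier results of these data known.

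The alternatives changed the probe sets tested, the arrays in the fit, the log scale, the scaling, the moderation, the test, the threshold or the pairing, or left out 1 array. Replicate numbers did not pair pools across groups: deviations of same-numbered pools correlated at −0.1 to 0.0348.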

Additional observations from a re-analysis of the deposited data

Results flagged for a closer look

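The difference between R1 and S1 itself differed between the sexes (adjusted p under 0.05, limma) in 9 named genes. Given as the log2 difference in males minus that in females, it was wider in males for *fiz* (3.20) and *fit* (3.82). For *Ntf-2r*, a retrogene copy of a nuclear transport factor, it was 4.89, from 2.14 in males and −2.75 in females. Neither passed 0.001 within its sex (limma adjusted p = 0.0595 and 0.0159). R1 females read 39.8 and 4.03 and S1 females 77.8 and 93.15. R1 males read 487 and 646 and S1 males 101 and 161, whereas the means of males of C1, C2, S2 and R2 were 383.4 to 496.8. For *CG12983*, which was lower in R1 females, the values were 5.42 and 4.92 at its 2 probe sets. They were negative where females had the wider positive gap, at −5.72 for *CG14384*, −4.34 for *Lsp2*, −3.61 for *Cyp4d21*, −3.59 for *CG6628* and −3.52 for *Sgp*.

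The difference between R1 and S1 departed from that between R2 and S2 (adjusted p under 0.001, limma) in 21 of the genes with the largest differences. Given as log2 R1 minus S1 less R2 minus S2, the values among genes higher in R1 were 6.16 for *CG18095*, 5.77 for *Prx6c*, 5.63 for *fiz*, 4.82 for *mthl8*, 4.70 for *Cyp4d21*, 3.33 for *fit* and 3.23 for *CG14384*. They were 3.15 for *CG11893*, 3.11 for *CG4267*, 2.60 for *CG4592*, 2.42 for *CG11891* and 2.33 for *Adk3*. Among genes lower in R1 they were −4.24 for *Acp65Aa*, −3.99 for *Vajk3*, −3.83 for *Lcp1*, −3.24 for *lncRNA:CR33218*, −3.06 for *Fst* and −2.93 for *CG33109*. They were −2.59 for *Zip102B*, −2.47 for *CG31189* and −2.33 for *LysP*.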

How the results depend on the processing

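The count of 352 was 336 with a replicate block over all lines, where the pools share only a number, and 173 with a replicate block within each line, chosen after seeing the data. It was 27 with only the 8 arrays of R1 and S1 (631 at an adjusted p under 0.05), 1614 at 0.05, and 232 to 616 without 1 array. The highest was without replicate 1 of the S1 females, where the share of higher calls was 51.1% in place of 64.5%, and the lowest was without replicate 2 of the R1 females. With only 8 arrays the count was 3 in males, 16 in females and 13 for the sex difference. At 0.05 it was 833 in males and 886 in females. Without 1 array it was 47 to 219 in males (135), 44 to 222 in females (136), 33 to 347 for the sex difference (65), the last without replicate 2 of the S1 females, and 385 to 732 for the line pairs (539). Of 64 named calls, 11 held in all 18 alternatives and 53 were lost in 1 or more. On linear Signal, in the methods' analysis of variance, *CG6628* (−29.8) reversed, *Sgp* (−709), not called over both sexes, changed sign, and so did *Ntf-2r*, also not called, there (186.1), with log2(Signal + 50) (0.41), with a floor of 16 (0.19) and, among fits without 1 array (−1.13 to 0.52), without replicate 2 of the R1 females. Other probe sets, scales and scalings kept the count of 352 within 1.5 times, but not all of its members. The methods' analysis of variance on Signal called 295, of which 218 were among the 352. Median centring of each array within its sex called 247, of which 228 were. With 2 arrays for each line and sex, the number of arrays limits the precision; the causes of these shifts were not tested.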
